A study of Mus musculus with 12 samples.

Results

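The nuclear-encoded genes of the mitochondrial respiratory chain were examined for YY1 binding at their promoters in bone marrow progenitor cells. They were taken as the autosomal protein-coding genes of GENCODE release M21 whose symbol begins with Nduf, Uqcr, Atp5 or Cox4 to Cox8, or is Sdha, Sdhb, Sdhc or Sdhd, which gave 91 gene records with 90 symbols among 20807 autosomal protein-coding genes. YY1 chromatin immunoprecipitation sequencing (ChIP-seq) of lineage-negative (Lin−) bone marrow cells was available for 2 libraries of wild-type (WT) and 2 of Xist-deficient (XistΔ/Δ) mice. Lin− cells are what is left of the marrow once cells bearing mature lineage markers are depleted, a mix rich in stem and progenitor cells. All animals were females aged 3 months of a strain labelled 129Sv4/Jae x B6. In XistΔ/Δ mice a floxed Xist allele (Xist 2lox) had been removed by the Cre recombinase Vav-iCre, which is driven by Vav1 sequences and acts in blood cells. Whether WT mice carried the transgene is not given in the labels. WT replicates 1 and 2 held 24.9 and 50.0 M tags and XistΔ/Δ replicates 1 and 2 held 23.1 and 59.5 M, so that both replicate 2 libraries were deeper. They gave 9553, 15933, 10075 and 18113 peaks in the same order. As a check of the labels, a peak of 3083 and 3222 bp lay at the Xist start in the WT libraries and none in the XistΔ/Δ libraries.

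The respiratory chain moves electrons from NADH and succinate to oxygen and uses the energy to pump protons across the inner mitochondrial membrane. Complex I (NADH dehydrogenase) and complex II (succinate dehydrogenase) feed electrons in, complex III (cytochrome bc1) passes them to cytochrome c, complex IV (cytochrome c oxidase) reduces oxygen, and complex V (ATP synthase) turns the proton gradient into ATP. Most subunits are encoded in the nucleus by genes scattered over the chromosomes, and YY1, NRF1 and GABPA are transcription factors long linked to their promoters.

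Motif matches at the promoters are shown before the peaks. RefSeq promoter sequences (GRCm38.p6, the same build as mm10) were found for 73 of the 90 symbols, in 78 promoters. Among those not matched were Atp5a1, Atp5mpl, Cox4i1, Cox4i2, Cox6a2, Cox6c, Cox8c, Ndufa2, Ndufa4l2, Ndufaf6, Ndufb9, Ndufs1, Sdhc, Uqcrb, Uqcrc2 and Uqcrq. The letters AANATGGC, a core of the YY1 motif, were searched on both strands from 250 bases before to 250 bases after the start, and 28 of 78 promoters (35.9%) held a match, against 2016 of 20084 autosomal protein-coding promoters (10.0%). All 28 belonged to the 66 promoters of genes that had a peak in all 4 libraries (42.4%), and none of the 12 promoters of other members held one. Among all coding promoters, 17.7% of the 7705 whose gene had a peak in all 4 libraries and 5.73% of the 8329 whose gene had a peak in none held a match. A match is a string of letters and not a measured binding site.

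The following stretches of 30 bases, read 5′ to 3′ on the gene's strand with the match in capitals, are examples of the matches from complexes I, II and III, and share the letters because the search required them. The first 3 belong to complex I subunits and the others to an assembly factor, to complex II and to complex III. Their positions are chr10:80249462-80249491 (Ndufs7), chr13:114388041-114388070 (Ndufs4), chr6:126849097-126849126 (Ndufa9), chr11:120098933-120098962 (Ndufaf8), chr4:140961391-140961420 (Sdhb), chr9:108936705-108936734 (Uqcrc1) and chr13:30545232-30545261 (Uqcrfs1), and each overlaps an exon of its gene. The genes of Ndufs7, Ndufaf8, Sdhb and Uqcrc1 are on the plus strand and the others on the minus strand.
Ndufs7: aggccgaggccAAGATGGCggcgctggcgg
Ndufs4: ttgcctacaggAAGATGGCggcggtctcaa
Ndufa9: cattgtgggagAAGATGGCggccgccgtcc
Ndufaf8: aggcagggcccAAGATGGCggcgccctcga
Sdhb: cgtcaggagccAAAATGGCggcgacggtcg
Uqcrc1: acggaagttagAAGATGGCggcgtccgcag
Uqcrfs1: gagcagctgtcGCCATGTTgtcggtcgccg

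In the first 6 the motif reads along the gene, and in Uqcrfs1, the Rieske iron-sulfur protein, it reads on the opposite strand. A further set from complexes IV and V shows both orientations within one complex. They lie at chr19:7217551-7217580 (Cox8a), chr10:128083313-128083342 (Atp5b), chr3:105959248-105959277 (Atp5f1), chr16:84835046-84835075 (Atp5j) and chr16:91931540-91931569 (Atp5o), with Atp5b on the plus strand and the others on the minus strand.
Cox8a: cggctggttcgGCCATCTTgactccctgac
Atp5b: acccggattccGCCATGTTgagtcttgtgg
Atp5f1: atgtgcgagcgGCCATCTTgctcctgcccc
Atp5j: aaagtgtaggaAAGATGGCggagtcttagc
Atp5o: ccgcccgggaaAAGATGGCcgcgcctgcag

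The matches gathered just downstream of the start. Of the 78 promoters, 17 (21.8%) had a match between bases 1 and 75 counted from the start, against 3.66% of all coding promoters. Among promoters whose gene had a peak in all 4 libraries, the shares were 25.8% of members and 7.93% of coding promoters. There were 28 distinct matches in 27 genes, 20 on the gene's strand and 8 on the other. Of these, 17 overlapped coding sequence, 6 an untranslated exon and 1 an intron, and 4 lay outside the gene. At 14 of them, all on the gene's strand, the ATG within the match was the annotated start codon of a transcript. Matches on the other strand were not checked for a start codon. Some of these, read as GCCATGTT, also hold an ATG on the gene's strand. At Atp5b, Ndufv2 and Uqcrfs1 such a match overlaps coding sequence, so 14 is a lower bound. The letters also resemble the Kozak sequence around start codons. A match on the gene's strand at a start codon was in 15 of 78 member promoters (19.2%) against 2.48% of all coding promoters. Any other match was in 13 (16.7%) against 7.71%. That class takes in every match on the other strand, so it can hold start codons too. Among promoters whose gene had a peak in all 4 libraries, the shares on the gene's strand at a start codon were 22.7% of members and 5.36% of coding promoters. For any other match they were 19.7% and 12.7%. Whether the start codon or YY1 accounts for the letters was not tested. Of the 28 matches, 25 lay inside the gene's widest peak in all 4 libraries, 1 in 3 libraries (Atp5b), 1 in 2 (Ndufs6) and 1 in none (Ndufb10).

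**Figure D1:**
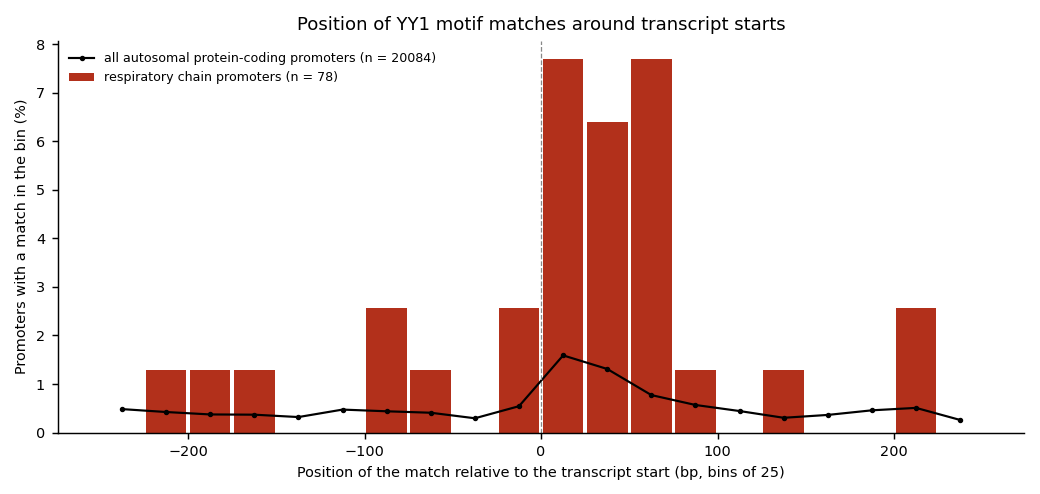
Share of promoters with a match to the YY1 motif letters AANATGGC in bins of 25 bp from 250 bp before to 250 bp after the transcript start. Bars are the 78 respiratory chain promoters and the line all 20084 autosomal protein-coding promoters; the 3 bars after the start reach 7.69%, 6.41% and 7.69%, where the line reaches 1.59%, 1.31% and 0.772%.

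The width of peaks was set beside the matches, without a test. Among genes with a peak in all 4 libraries, the rank of peak width among a library's autosomal peaks, as a percentile averaged over the 4 libraries, had a median of 78.1 (range 58.3 to 98.0) in the 27 genes with a match and 58.7 (30.6 to 98.9) in 34 without. The lowest of the 27 was Ndufb10, whose widest peak lies over the neighbouring Rps2 and does not hold the match. On peaks over the gene's own starts the median was 78.5 (64.2 to 98.0) in 26 genes with a match and 58.7 in 34 without. The matched members with the letters numbered 14 of 30 in complex I, 2 of 7 among its assembly factors, 1 of 3 in complex II, 2 of 5 in complex III, 1 of 13 in complex IV and 7 of 15 in complex V. Other motifs were searched in the same window of 250 bases on both sides of the start. The NRF1 motif GCGCANGCG was in 33.3% of member promoters and 10.5% of all, and the estrogen-related receptor letters AAGGTCA in 25.6% and 6.52%, so that the share of members stood above that of all promoters by as large a factor as for the YY1 letters or nearly so. The ETS letters CCGGAAG, bound by GABPA among others, were in 25.6% and 15.0%, and the longer YY1 letters ATGGCGGC, which overlap AANATGGC, in 15.4% and 5.43%. The CCAAT box (CCAAT) was in 44.9% and 47.7% and the GC box (GGGCGG) in 64.1% and 55.5%. In the shorter window that ends 50 bases after the start, the shares were 21.8% and 6.36% for the YY1 letters, 29.5% and 8.75% for NRF1, 10.3% and 4.03% for the estrogen-related receptor letters, and 44.9% and 47.0% for the GC box.

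Most respiratory chain genes carried a YY1 peak in every library. A gene was counted when a peak lay within 3 kb of any of its transcript starts. Peaks were present at 75 (82.4%) and 81 (89%) of the 91 genes in WT replicates 1 and 2 and at 77 (84.6%) and 84 (92.3%) in XistΔ/Δ replicates 1 and 2, where the shares of all coding genes were 40.8%, 49.0%, 40.7% and 50.3%. A peak in all 4 libraries was found at 72 genes (79.1%), against 37.1% of all coding genes. No library had a peak at 7 genes (7.69%), against 48.3%. The share was thus well above that of all coding genes in each library, and close to that of other housekeeping sets, since 69 of 78 mitochondrial ribosomal protein genes and 31 of 39 proteasome subunit genes had a peak in all 4 libraries. No test was made of these differences, as genes are not replicates. In bulk cells, a larger fraction of cells with YY1 bound and more YY1 in each cell cannot be told apart.

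**Figure D2:**
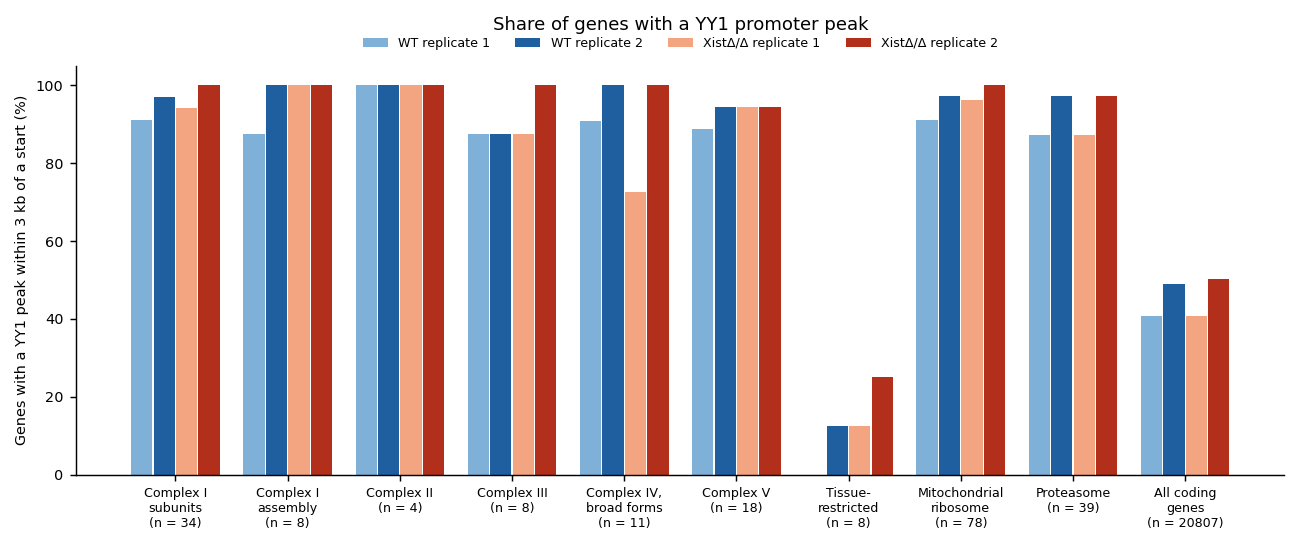
Percentage of genes with a YY1 peak within 3 kb of a transcript start, for each respiratory chain complex and for 3 comparison sets. Each bar is 1 library; complexes I, II, III and V stand at 87.5% or more in every library, tissue-restricted isoforms at 0% to 25%, and all coding genes at 40.7% to 50.3%.

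The peaks sat on the starts. The gene's widest peak covered a start in 73 of 75, 80 of 81, 74 of 77 and 80 of 84 genes (WT replicates 1 and 2, then XistΔ/Δ replicates 1 and 2), and its centre lay a median of 127, 153, 85 and 131 bp from the nearest start. Peaks ranged from 501 bp, the most frequent width, to 4006 bp. As the deposited score is 1 for every peak, width was ranked within each library as a percentile among its autosomal peaks, on which 501 bp stands between 9.2 and 12.0. Width is the length of the called region and not a tag count. The median percentile of respiratory chain genes was 68.5, 76.6, 66.7 and 73.1, and that of all coding genes with a peak 59.6, 69.5, 61.0 and 72.0.

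Several of these peaks are shared with a neighbour. A coding gene transcribed head to head within 1 kb was found for 32 members, 30 of which had a peak in all 4 libraries, as had 42 of the other 59. The 59 include all 8 tissue-restricted isoforms and an additional Atp5o record, none with a peak in all 4 libraries. How often coding genes in general share a promoter or a peak in this way was not counted. The span of the peaks held the start of another coding gene at 33 of the 84 members with any peak, so that part of their width may belong to that gene. Examples are Ndufb5 with Mrpl47, Uqcrh with Lrrc41, Sdhd with Timm8b and Atp5j with Gabpa.

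**Figure D3:**
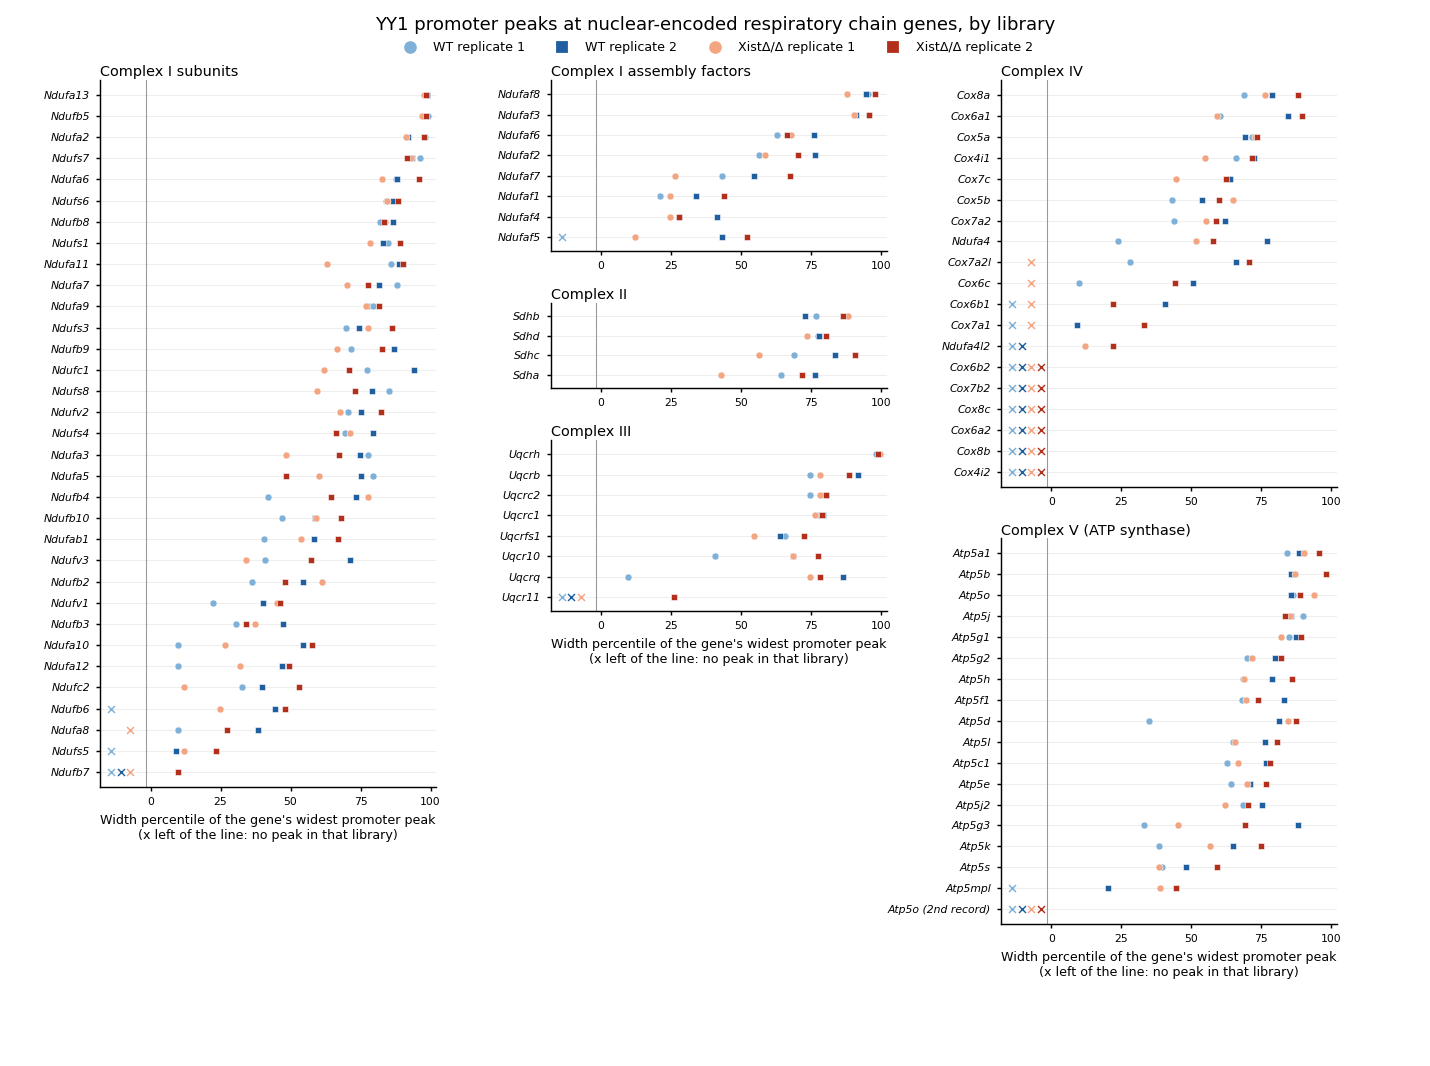
Width percentile of the widest YY1 promoter peak of 90 of the 91 respiratory chain records in each library, by complex and sorted by mean. Blue marks are WT and red marks XistΔ/Δ, circles replicate 1 and squares replicate 2, and crosses left of the line mark libraries without a peak; complex IV holds 6 of the 7 records without a peak in any library.

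Complex I had peaks at nearly all of its subunits. Of 34 subunit genes, 31, 33, 32 and 34 had a peak in the 4 libraries and 30 in all of them. The 7 core subunits, which together bind NADH and hold the flavin and iron-sulfur clusters, had peaks in every library, as had 23 of the other 27. Median percentiles of core subunits were 84.9, 79.1, 77.8 and 86.4 and of the others 74.4, 75.1, 61.8 and 67.0, higher for the core in each library. The core was not uniform. Its lowest member in each library, Ndufv1, stood at 22.2, 40.0, 45.1 and 46.1, below the median of the others.

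By mean percentile Ndufa13, also known as GRIM-19, an accessory subunit, stood highest in complex I. Its peaks were 3005 and 3514 bp for WT against 2198 and 3148 bp for XistΔ/Δ replicates 1 and 2, within chr8:69900216-69903740. Ndufb5, an accessory subunit of the membrane arm, had 3165, 3172, 2065 and 3175 bp within chr3:32735206-32738680, wider than Ndufa13 in WT replicate 1 and XistΔ/Δ replicate 2. Both genes stood at a width percentile of 97.0 or more in every library, and the XistΔ/Δ replicate 1 library gave the narrowest peak at each. Autosomal peaks of that library were also the narrowest by median, 778 bp against 892 to 926 bp in the others.

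At the other end, Ndufc2 had 688, 787, 501 and 912 bp and Ndufa12 had 501, 900, 632 and 889 bp, both accessory subunits. Their values overlapped between the genotypes. Peaks were missing in 1 library or more at Ndufa8, Ndufb6, Ndufs5 and Ndufb7. Ndufa8 had none in XistΔ/Δ replicate 1, with 501, 777 and 635 bp in the other 3. Ndufb6 had 882, 626 and 878 bp and Ndufs5 had 501, 501 and 628 bp in all but WT replicate 1. Ndufb7 had a single peak of 501 bp, in XistΔ/Δ replicate 2, the deepest library. Apart from that, each missing value was in a replicate 1 library, the shallower ones.

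For some complex I genes the widest peak belonged to a neighbour. The widest peak near Ndufb10 (840, 1073, 891 and 1186 bp) lay over Rps2, a ribosomal protein gene, and came no closer than 1.99 to 2.19 kb to a start of Ndufb10. A peak over its own start was found only in the replicate 2 libraries, 628 bp in WT and 640 bp in XistΔ/Δ. Ndufb10 was thus the member nearest to the 3 kb limit from inside. At Ndufs6, which carries a zinc site, the widest XistΔ/Δ peaks covered the start of Mrpl36, while peaks over its own start were 1557, 1890, 1174 and 1578 bp.

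All but 1 of the 8 assembly factor genes of complex I had a peak in every library. Ndufaf8 had 2258, 2553, 1426 and 3026 bp and Ndufaf3 had 2285, 2169, 1527 and 2546 bp, the widest of the group. XistΔ/Δ replicate 1, the library with the narrowest median peak, was the lowest for both. Next in rank was Ndufaf6 at 1061, 1487, 1015 and 1163 bp. The narrowest in all 4 were Ndufaf4 (643, 804, 626 and 637 bp) and Ndufaf1 (627, 760, 626 and 787 bp). Ndufaf5 lacked a peak in WT replicate 1 and had 841, 501 and 904 bp in the others.

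The 4 complex II genes all had peaks in all libraries. Sdha, the flavoprotein that oxidizes succinate, had 1076 and 1510 bp for WT against 755 and 1295 bp for XistΔ/Δ, lower in XistΔ/Δ within both replicate numbers. Sdhb, the iron-sulfur subunit, whose motif match overlaps the start codon, had 1337 and 1406 bp for WT against 1438 and 1791 bp for XistΔ/Δ, higher within both. The membrane anchors Sdhc (1172, 1751, 843 and 2023 bp) and Sdhd (1356, 1552, 1074 and 1543 bp) overlapped between the genotypes. Subunits of the same enzyme therefore did not share one direction.

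In complex III, 7 of 8 genes had peaks in all libraries. Uqcrh, the hinge protein that binds near cytochrome c1, had the highest mean percentile of all respiratory chain genes, 98.9, with 2731, 4006, 2915 and 3442 bp within chr4:116073713-116077718. Its peak also spans the start of Lrrc41. Uqcrb had 1291, 2235, 1173 and 1900 bp, and the core protein Uqcrc2 had 1289, 1626, 1171 and 1532 bp. The lowest of those in all libraries were Uqcr10 (777, 1292, 1019 and 1439 bp) and Uqcrq (501, 1897, 1098 and 1454 bp), 2 small subunits. For Uqcrq the WT replicate 1 value stood apart from the other 3. Uqcr11, another small subunit, had one peak of 632 bp, in XistΔ/Δ replicate 2.

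Complex IV differed from the others in its isoforms. Of its 19 genes, 8 had a peak in all libraries. Those numbers include tissue-restricted forms, namely Cox4i2 of the lung, Cox6a2, Cox7a1 and Cox8b of heart and muscle, Cox6b2, Cox7b2 and Cox8c of the testis, and Ndufa4l2, a paralog of the complex IV subunit Ndufa4 known to be induced in hypoxia. None of the 8 had a peak in all 4 libraries, whereas 8 of the 11 broadly expressed forms did. No peak was found in any library at Cox4i2, Cox6a2, Cox6b2, Cox7b2, Cox8b and Cox8c. The nearest peak lay 11.9 to 34.4 kb from Cox4i2, 30.7 to 30.8 kb from Cox6a2, 10.7 to 11 kb from Cox6b2, 619 to 620 kb from Cox7b2, 7.98 to 17.8 kb from Cox8b and 20.2 to 20.5 kb from Cox8c, so none was near the 3 kb limit. Peak lists give no expression, and whether these genes are silent in Lin− cells was not tested.

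The broadly expressed partners of these isoforms had peaks. Cox4i1, partner of Cox4i2, had 1111, 1384, 807 and 1292 bp. Cox6a1, partner of Cox6a2, had 1030, 1800, 890 and 1948 bp. Cox8a, partner of Cox8b and Cox8c, had 1172, 1577, 1146 and 1867 bp and was the highest of the complex by mean percentile, 78.0, ahead of Cox6a1 at 73.3 and of the matrix-side subunit Cox5a (1219, 1307, 1062 and 1318 bp) at 71.8. Cox7a2, partner of Cox7a1, had 794, 1157, 814 and 1024 bp and Ndufa4, partner of Ndufa4l2, had 630, 1522, 785 and 1013 bp, which were the lowest of those with peaks in all libraries. In each of these pairs the broad form was present in all 4 libraries and the restricted form in 0 or 2.

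Cox6b1 was an exception among the broad forms, with peaks only in the replicate 2 libraries, 793 bp in WT and 627 bp in XistΔ/Δ. Cox7a1, the muscle form, had the same pattern with 501 and 692 bp. A peak in both replicate 2 libraries alone was found for these 2 members (2.2%) and for 4.30% of all coding genes. Cox6c (501, 932 and 788 bp) and Cox7a2l (644, 1223 and 1274 bp), a factor of supercomplex assembly, lacked a peak in XistΔ/Δ replicate 1.

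Of the 5 complexes, complex IV had the lowest median percentile in each of the 4 libraries. Its medians were 51.9 and 64.9 for WT against 55.2 and 59.9 for XistΔ/Δ, over the 10, 12, 9 and 13 genes with a peak. Complex I had 77.2, 75.3, 64.9 and 69.5, complex II 72.8, 77.3, 65.0 and 83.6, complex III 74.5, 80.2, 76.6 and 78.5 and complex V 68.2, 80.0, 69.5 and 80.7. The highest complex was not the same in every library. With tissue-restricted forms left out, complex IV stood at 51.9, 65.9, 57.2 and 62.4, still the lowest of the 5 complexes in each. The assembly factors of complex I, kept apart in this ranking, had 56.3, 65.3, 42.6 and 66.9. That was below complex IV in XistΔ/Δ replicate 1 and, with tissue-restricted forms left out, also in WT replicate 2. A peak among the widest 10% of autosomal peaks was found at 8, 10, 9 and 13 respiratory chain genes and at 0 complex IV genes. That is 10.7%, 12.3%, 11.7% and 15.5% of the respiratory chain genes with a peak, below the 13.1%, 17.3%, 13.2% and 18.9% of all coding genes with a peak in each library. Such peaks were at 0, 0, 2 and 2 complex V genes and at 0, 0, 0 and 1 complex II genes, so their absence from a library was not particular to complex IV.

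In complex V, 16 of 18 records had a peak in all libraries. By mean percentile Atp5a1, the alpha subunit of the catalytic head, stood highest at 89.5 with 1555, 1991, 1523 and 2547 bp, and Atp5b, the beta subunit, followed at 89.1 with 1634, 1836, 1392 and 3101 bp. The last value lies over the start of Baz2a, and the XistΔ/Δ replicate 2 peak over a start of Atp5b itself was 1914 bp. On peaks over its own starts Atp5b had a mean percentile of 86.8, below Atp5o at 88.7. Atp5o, which joins the head to the peripheral stalk, had 1644, 1845, 1764 and 1915 bp, wider than Atp5a1 in both replicate 1 libraries. For Atp5a1 and Atp5o the percentile was higher in XistΔ/Δ within both replicate numbers (84.0 to 90.2 and 88.3 to 95.7 for Atp5a1, 86.4 to 93.9 and 85.6 to 88.9 for Atp5o).

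The lowest complex V genes with peaks in all libraries were Atp5s, coupling factor B, with 771, 907, 655 and 1027 bp and Atp5k, the e subunit of the membrane part, with 766, 1199, 844 and 1362 bp. Atp5mpl, a small membrane proteolipid, lacked a peak in WT replicate 1 and had 627, 659 and 790 bp elsewhere. The record without any peak was another annotation under the symbol Atp5o, ENSMUSG00000116933.1, at chr16:91684398-91926982, whose single start lay 3.25 to 3.6 kb from the peak of the main Atp5o gene, just outside the limit.

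Genes that act beside the subunits were also mostly occupied. Of 41 genes for electron carriers and for assembly factors of complexes II to V and others of complex I, 36 had a peak in all libraries and none lacked one throughout. Their median percentiles were 54.9, 71.6, 51.1 and 72.3, below all coding genes in the replicate 1 libraries and above them in the replicate 2 libraries, where respiratory chain genes stood above all coding genes in each. Cycs, cytochrome c, had 840, 1362, 626 and 1303 bp. Of 10 regulators of mitochondrial genes, 9 had a peak in all libraries. Nrf1 had 2106, 3070, 2612 and 3033 bp, and Gabpa, which shares its promoter and its peaks with Atp5j, had 1811, 1844, 1338 and 1644 bp. Tfam, which packs and transcribes mitochondrial DNA, had 915, 893, 805 and 970 bp, and the nuclear receptor gene Esrra had 695, 2010, 1086 and 1475 bp. Yy1 itself had 3554, 3749, 3396 and 3978 bp, at percentiles of 99.0 to 99.7. Ppargc1a, a coactivator strong in muscle and brown fat, was the regulator with no peak in any library.

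The genotypes were compared to ask whether loss of Xist, a silencer of the X chromosome, went with altered YY1 peaks at these autosomal genes. A peak was present at 78.0 ± 4.24 respiratory chain genes per WT library (SD, n = 2) against 80.5 ± 4.95 per XistΔ/Δ library (SD, n = 2). The difference of 2.5 genes was below the replicate spread (exact permutation test over libraries, two-sided, p = 0.667, where the smallest possible p is 0.333). Within replicate numbers it was 2 and 3. The median percentile was 72.57 ± 5.72 and 69.89 ± 4.56 (SD, n = 2 each), a difference of -2.68 points (exact permutation test, p = 0.667), with -1.86 and -3.50 within replicate numbers. No difference between genotypes was detectable with this design. The values rest on single libraries: without WT replicate 1 or XistΔ/Δ replicate 2 the difference in genes became -0.50 and -1.0, and without WT replicate 2 or XistΔ/Δ replicate 1 the difference in percentile became 1.37 and 0.55. With lists cut to equal length the difference in genes was -1.5.

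One gene had a peak in both XistΔ/Δ libraries and in no WT library (1.1% of members, against 0.207% of all coding genes), and 0 genes had the reverse (against 0.0721%). It was Ndufa4l2, with 501 bp in XistΔ/Δ replicate 1 and 627 bp in replicate 2. The peaks lay 1.62 and 1.71 kb upstream of its start, at chr10:127512850-127513350 and chr10:127512631-127513257, with their centres in no annotated gene, and covered no start. The nearest WT peaks were 127 and 117 kb away. Both peaks were among the narrower ones of their library, at percentiles of 12.0 and 22.0, and the gene was not counted with a limit of 1 kb or with lists of equal length.

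Of the 72 genes with a peak in all libraries, 24 (33.3%) had a higher width percentile in XistΔ/Δ within both replicate numbers, against 35.8% of all coding genes, and 16 (22.2%) a lower one, against 17.1%. The other 32 moved in opposite directions. The first share was close to that of all coding genes, and the other was not tested against it. Counted on width in bp instead, 9 genes were wider and 31 narrower, so the balance of directions turned with the scale. Peaks in general also had a lower median width in XistΔ/Δ within both replicate numbers (778 against 894 bp, then 892 against 926 bp). The counts in bp were not set beside all coding genes, so whether they are particular to respiratory chain genes was not tested. No gene moved by more than 20 percentile points in the same direction within both replicate numbers. The nearest, picked after their values were seen, were Ndufa5 (-19.5 and -26.7 points) and Ndufc1 (-15.4 and -23.2), both accessory subunits of complex I.

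**Figure D4:**
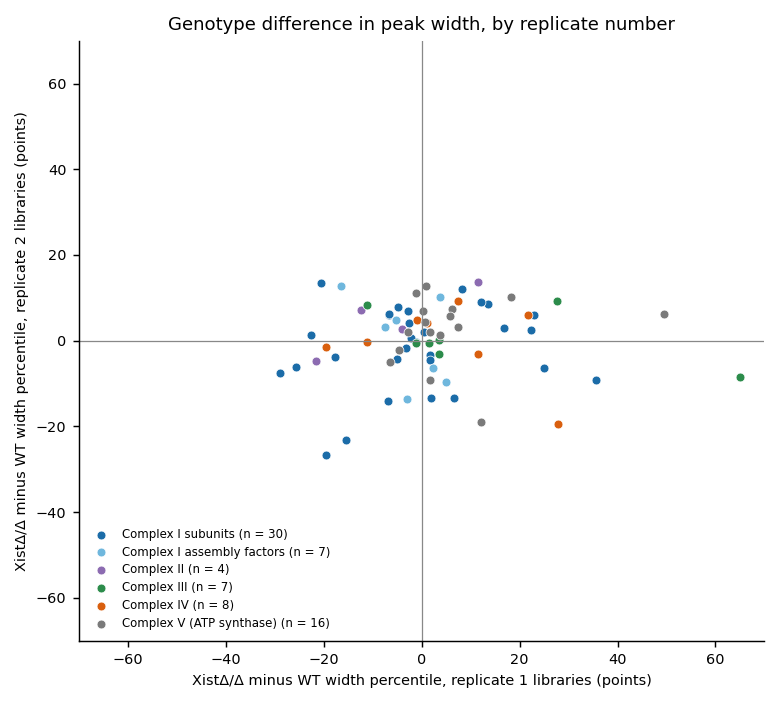
XistΔ/Δ minus WT difference in width percentile of the widest promoter peak, replicate 1 libraries on the horizontal and replicate 2 libraries on the vertical axis, in percentile points, for the 72 genes with a peak in all 4 libraries. Each point is a gene coloured by complex; 24 lie in the upper right and 16 in the lower left quadrant, and Uqcrq at 65.1 points is the farthest to the right.

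By complex, 10 of 16 complex V genes (62.5%) were wider and 2 (12.5%) narrower in XistΔ/Δ within both replicate numbers. In complex I, 7 of 30 (23.3%) were wider and 9 (30%) narrower. With only peaks over a start counted, the complex I counts were 5 and 10, and those of complex V stayed at 10 and 2. The shares of all coding genes with a peak in all libraries were 35.8% and 17.1%, and no test was made. The count of wider complex V genes fell to 6 with lists of equal length, to 4 by summed width and to 3 on width in bp. On width in bp, 6 were narrower. These alternative counts were not set beside all coding genes. Most of the shifts were small: Atp5h moved by 0.3 and 7.0 points, Atp5l by 0.7 and 4.4, and Atp5c1, the gamma subunit, by 3.8 and 1.4. The largest was Atp5d, the delta subunit, at 49.4 and 6.3 points, with 753 bp in WT replicate 1 and 1664, 1319 and 1838 bp in the other libraries. For Atp5d, as for Uqcrq, the WT replicate 1 value was the one that stood apart.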

How the data were processed

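YY1 ChIP-seq peaks of 4 Lin− bone marrow libraries were analysed, and of the 12 samples in the series the 8 for histone marks are not analysed here. According to the study's methods and the submitters' processing notes, cells were cross-linked, chromatin was digested with micrococcal nuclease, and reads were trimmed with TrimGalore, aligned to mm10 with Bowtie2 (2.3.5.1), filtered for mapping quality with SAMtools (1.10) and cleared of duplicates. Peaks were called with HOMER findPeaks in each library separately (4.9.1 in the processing notes, while the methods give no version for this step). Per the file headers, peaks of 500 bp were joined into regions, a 4.00 fold tag density over the surroundings and a false discovery rate of 0.001 were required, no input library was named, and the threshold was 22, 33, 22 and 37 tags per peak (WT replicates 1 and 2, XistΔ/Δ replicates 1 and 2). Without an input, open chromatin and copy number also shape the peaks. Deeper libraries bring weaker sites over the threshold, and 3.58% to 4.88% of tags lay in peaks. The authors deposited a score of 1 with each peak, which ranks nothing, and peak width took its place. Replicates were numbered by the labels, from which the directory names in the headers differ. The study's methods speak of biological replicates, but no source says whether each came from a separate mouse, so p-values measure only the spread between libraries.

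Peaks were assigned to every gene with a GENCODE M21 transcript start within 3 kb, and the widest peak per gene and library was ranked as a percentile among autosomal peaks (Python 3.11.15, numpy 2.4.6, pandas 2.3.3, scipy 1.17.1, matplotlib 3.10.9). Genotypes were compared over libraries by exact permutation, two-sided. The assignment of peaks to genes was tested on simulated data with planted peaks. Named were members lacking a peak in a library, the 3 highest and 2 lowest of each complex by mean percentile, complex II, tissue-restricted forms, members that moved by over 20 points one way within both replicate numbers, and chosen regulators; other names were examples chosen after their values were seen, and 1 member is counted but not reported here by name. Members and lists were chosen with earlier results of these data known. Alternatives were the distance, peak centre, widest peaks, equal list length, width scales, overlap, subunits alone, the replicate block and leaving out each library. Requiring that a peak cover a start, keeping genes with peaks in all libraries, motif matches against peaks over a start, and counts for single complexes were added after seeing the data.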

Additional observations from a re-analysis of the deposited data

How the results depend on the processing

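The count of respiratory chain genes with a peak in all 4 libraries was 72 and lay between 65 and 71 under 6 alternatives, was also 72 with peak centres within 3 kb, and fell to 46 among the widest 50% of each list, where fewer peaks enter. Leaving out 1 library gave 72 to 76. The XistΔ/Δ minus WT difference in genes with a peak (2.5) turned to -1.5 with lists of equal length, and ranged from -1.0 to 6.00 with 1 library left out. The difference in median percentile (-2.68) ranged from -6.72 to 1.37 with 1 library left out and was -0.19 over the genes with peaks in all libraries. The count with a peak in XistΔ/Δ alone was 0 at 1 kb, among the widest 50% and with lists of equal length. It was also 0 for peaks covering a start and for subunits alone. The last setting leaves out assembly factors and tissue-restricted forms, so Ndufa4l2 could not be counted there. With 1 library left out the count was 1 to 5 (5 without WT replicate 2, 3 without XistΔ/Δ replicate 1). The count with a peak in WT alone was 1 with lists of equal length and 0 to 3 with 1 library left out (3 without XistΔ/Δ replicate 2). The 24 genes wider in XistΔ/Δ became 14 among the widest 50%, 13 with lists of equal length, 9 on width in bp and 13 by summed width, and the 16 narrower genes became 10 among the widest 50% and 31 on width in bp. With 1 library left out, a single replicate number decides the direction, and 39 to 45 genes were wider and 31 to 33 narrower. The cause of these shifts was not tested, apart from those that follow from fewer peaks or libraries.

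Same-numbered libraries deviated together (correlation 0.38 for presence of a peak over 20807 genes and 0.31 for width percentile over 7709). They were alike in depth and in tag threshold, and no label names a shared batch. With 2 pairs, what lies behind the correlation was not tested. With the replicate block the differences were 2.5 genes and -2.68 points, unchanged by design (exact sign-flip permutation over the 2 pairs, p = 0.5 for both). As 0.5 is the smallest p possible with 2 pairs, the block could not have changed a call. Depth limits what a missing peak means: 24.9 and 23.1 M tags against 50.0 and 59.5 M, so absence in a replicate 1 library alone may be a weak peak under the threshold.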

Other observations

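Subunits of the respiratory chain encoded on the X chromosome were left out of the counts, as Xist acts there. Ndufb11, an accessory subunit of complex I, had peaks of 1974 and 2247 bp for WT against 1641 and 2176 bp for XistΔ/Δ replicates 1 and 2, at percentiles of 92.1 to 92.6 in every library. Cox7b, a complex IV subunit, had 1198 and 1298 bp for WT against 1032 and 2382 bp for XistΔ/Δ, where the XistΔ/Δ replicate 2 value stood apart. Ndufa1, another accessory subunit of complex I, had peaks only in the replicate 2 libraries, 802 bp in WT and 1022 bp in XistΔ/Δ. The broadly expressed X-linked Cox7b thus had a peak in all 4 libraries, and its autosomal testis paralog Cox7b2 in none.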
